A study of Mus musculus with 10 samples.

Results

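The cytosolic ribosomal protein genes of macrophages grown from mouse bone marrow were compared between mice that carry the hWDFY3 knock-in on both alleles (hWDFY3KI/KI, labelled human WDFY3 overexpression, 5 libraries) and wild-type mice (Ctrl, 5 libraries). WDFY3, also called ALFY, is a scaffold protein of selective autophagy. The labels give male mice of 6 to 8 weeks in both groups, with marrow cultured in L-929 fibroblast supernatant until day 7. The promoter behind the human transgene is not named in the labels. Libraries are called KI 1 to KI 5 and Ctrl 1 to Ctrl 5 after the replicate numbers of the labels. Genes were chosen by symbol: those that start with Rpl or Rps followed by a digit, plus Rplp0, Rplp1, Rplp2 and Rpsa, without Rps6k kinases, pseudogene names and Rik names. This gave 87 symbols for 86 gene IDs, since Rpl37rt shares the ID of Rpl37, out of 14409 gene IDs in the deposited log2 table. Of the 86 genes, 46 encode large-subunit proteins, 31 encode small-subunit proteins, 8 are paralogs of such genes, and 1, Rps19bp1, encodes a protein that binds RPS19 and is no part of the ribosome. The ribosomal genes Fau and Rack1 lie outside the symbol rule.

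The ribosome joins a small subunit, which holds the mRNA and reads its codons, to a large subunit, which forms the peptide bond and releases the growing chain through an exit tunnel. Its proteins are made in matched amounts, and in mammals their mRNAs share a pyrimidine-rich 5′ end, the TOP motif, through which mTORC1 and LARP1 control their translation together. Ribosomal protein mRNAs have also been copied back into the mouse genome many times, so that a gene can have intronless copies of almost the same sequence. Reads of about the length used here can be hard to place between such a gene and its copies.

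The libraries held 15.2 to 22.9 M estimated counts in the hWDFY3KI/KI group and 14.6 to 36.4 M in the Ctrl group. The 16 macrophage markers checked, among them Csf1r and Lyz2, were all above 1 CPM (counts scaled to a common library total). Stromal genes were present in every library, with 24 of 28 markers at 1 CPM or more and a summed level of 186 to 653 CPM in hWDFY3KI/KI libraries and 220 to 997 CPM in Ctrl libraries. They were highest in Ctrl 4, Ctrl 1 and KI 4. Neutrophil markers summed to 209 to 460 CPM in hWDFY3KI/KI libraries and 278 to 637 CPM in Ctrl libraries. Their part in the results was not tested. Of 8 erythroid markers, none averaged 1 CPM and 2 were at 0 in every library. In bulk RNA, fewer cells of a type and less RNA per cell cannot be told apart.

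No ribosomal protein gene passed the test between the genotypes. Of the 84 genes with enough counts for the test, 0 were called at an adjusted p of 0.05 by edgeR (quasi-likelihood F-test), against 10 of 12411 genes tested, which is 0.0806%. DESeq2 also called 0 members, where it called 0.378% of all genes with an adjusted p. At an unadjusted p under 0.05, 4 members were lower in hWDFY3KI/KI macrophages and 0 were higher, where 2.92% of all tested genes were lower and 3.29% higher. The groups overlapped in all 84 genes, while 1.32% of all tested genes had groups that did not overlap. The count of 4 depended on single libraries: it was 0 without KI 1, 1 without Ctrl 2, 2 without KI 2, KI 4 or Ctrl 1, and 9 without Ctrl 5. Fitted values were small and mostly below 0: 69 of 84 had a negative log2 fold change of hWDFY3KI/KI over Ctrl, against 51.7% of all tested genes, and the median was -0.051, against -0.0046 over all tested genes. The median was -0.033 without KI 1, -0.022 without Ctrl 2 and -0.081 without Ctrl 5. The genes share libraries and are not independent, so this count is a description. The interval of 2 SE on each side stayed within a 1.5-fold difference for 81 of the 84 genes.

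**Figure D1:**
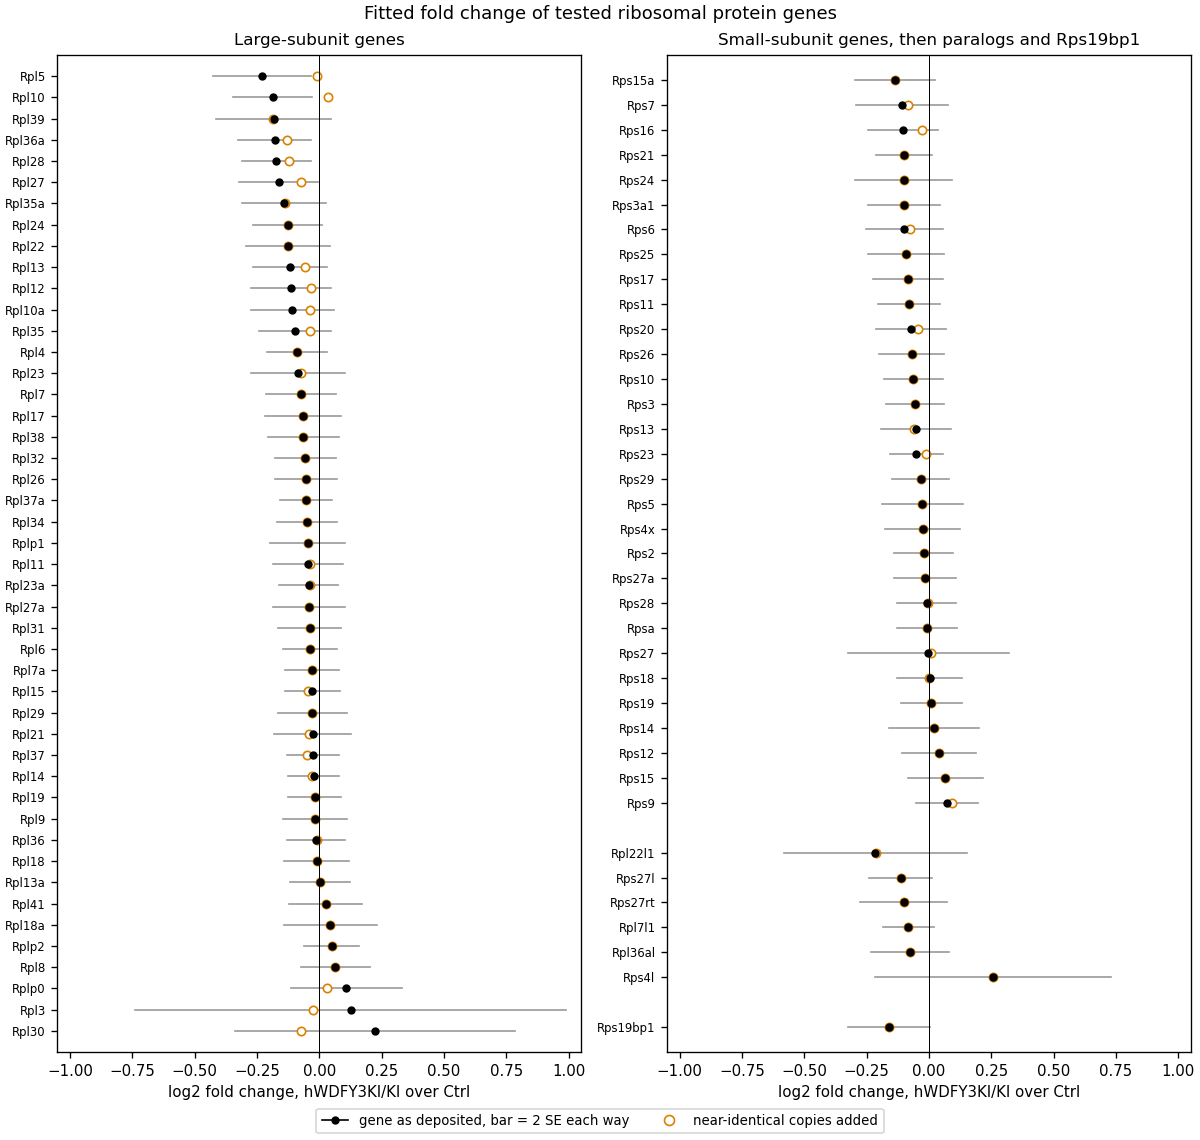
Log2 fold change of hWDFY3KI/KI over Ctrl for tested genes, with bars of 2 SE on each side for the gene as deposited and open circles after the counts of near-identical copies were added. Rpl3 and Rpl30 have the widest bars among the large-subunit genes, and the circles of Rpl5 and Rpl10 lie near 0 while their points lie at -0.23 and -0.19.

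Values were small in both subunits. The median log2 fold change was -0.046 over the 46 large-subunit genes, 38 of them negative, and -0.051 over the 31 small-subunit genes, 25 of them negative. With near-identical copies added, the medians were -0.040 with 39 negative and -0.030 with 23 negative, and the difference between the subunits was not tested. All ribosomal protein genes together took 2.41, 2.57, 2.66, 2.46 and 2.51% of the counts in KI 1 to KI 5, and 2.56, 2.86, 2.62, 2.49 and 2.56% in Ctrl 1 to Ctrl 5. The groups overlapped, and Ctrl 2 stood highest. Leaving out mitochondrially encoded counts, which took 5.99 to 6.30% in hWDFY3KI/KI and 5.34 to 6.02% in Ctrl libraries, the share was 2.56 to 2.84% in hWDFY3KI/KI and 2.64 to 3.03% in Ctrl libraries. The ratio of large-subunit to small-subunit counts was 1.36 ± 0.019 in hWDFY3KI/KI libraries and 1.36 ± 0.031 in Ctrl libraries (SD, n = 5 each). Leaving out Ctrl 1, Ctrl 4 and KI 4, the libraries with the most stromal RNA, gave 0 called members again and a median of -0.052.

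Counts of several members were divided between the gene and its near-identical copies, and this division differed between libraries of the same group. A search of the annotated transcripts of mouse build GRCm38 with the coding sequence of each member found 492 copies for 70 of the 86 genes. A copy had to match at least 95% of the bases over at least 90% of the coding sequence. Of these copies 37, belonging to 31 genes, averaged at least 1 CPM, and 15 of the 37 were identical to the gene over the whole coding sequence. For 7 genes the copies held more than 50% of the family's counts, led by Rpl12 with 96.0%, Rpl5 with 94.8% and Rpl10 with 86.6%. Near-identical copies make the count of the gene alone uncertain, and values with the copies added are given beside it for several of the genes affected. Rps27rt was counted as a member and not as a copy, so Rps27 is not among the 7 genes although Rps27rt held most of the pair's counts.

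The families of Rpl3, Rpl30 and Rplp0 show how far the division could go. Stretches of 60 coding bases are shown 5′ to 3′ on the coding strand (GRCm38) because these few bases are all that separates a gene from its copy there, and capitals mark the bases at which the sequences of a family differ. The stretch covers coding bases 27 to 86 of Rpl3, 37 to 96 of Rpl30 and 388 to 447 of Rplp0, counted from the start codon. Rpl12 and its copy Gm10275, coding bases 1 to 60, stand for the families without any difference.
Rpl3 (chromosome 15): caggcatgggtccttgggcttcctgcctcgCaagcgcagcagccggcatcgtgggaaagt
Rpl3-ps1 (chromosome X): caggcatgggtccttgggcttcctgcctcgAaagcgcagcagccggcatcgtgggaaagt
Rpl30 (chromosome 15): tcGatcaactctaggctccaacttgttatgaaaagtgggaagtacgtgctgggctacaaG
Gm12191 (chromosome 11): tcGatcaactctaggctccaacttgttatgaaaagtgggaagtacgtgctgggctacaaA
Rpl30-ps1 (chromosome 6): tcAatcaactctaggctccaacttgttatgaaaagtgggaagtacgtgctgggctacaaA
Rplp0 (chromosome 5): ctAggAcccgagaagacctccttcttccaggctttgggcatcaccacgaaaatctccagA
Gm8730 (chromosome 8): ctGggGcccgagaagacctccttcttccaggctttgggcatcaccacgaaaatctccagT
Rpl12 (chromosome 2): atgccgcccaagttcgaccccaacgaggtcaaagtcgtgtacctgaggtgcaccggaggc
Gm10275 (chromosome 10): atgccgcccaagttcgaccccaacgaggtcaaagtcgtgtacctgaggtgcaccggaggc
Over the coding sequence without the stop codon, Rpl3 and Rpl3-ps1 differed at 2 of 1209 bases. Rpl30 differed from Gm12191 at 1 of 345 bases and from Rpl30-ps1 at 3. Rplp0 and Gm8730 differed at 12 of 951 bases, and Rpl12 and Gm10275 at 0 of 495.

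Rpl3, a core protein next to the peptidyl transferase centre, was listed at 546, 319, 347, 586 and 593 CPM in KI 1 to KI 5, and at 572, 341, 112, 584 and 583 CPM in Ctrl 1 to Ctrl 5. Its copy Rpl3-ps1 (chromosome X, 13202571 to 13203780, plus strand, annotated as a processed pseudogene) was at 242 and 277 CPM in KI 2 and KI 3, at 282 and 488 CPM in Ctrl 2 and Ctrl 3, and at 0.510 CPM or less in the other 6 libraries. The low values of Rpl3 were thus in the same 4 libraries in which the copy had counts. The sum of Rpl3 and its copies was 546 to 623 CPM in hWDFY3KI/KI libraries and 572 to 623 CPM in Ctrl libraries. The coefficient of variation over the 10 libraries was 36.5% for Rpl3 alone and 4.15% for the sum. The log2 fold change was 0.13 ± 0.43 (SE) for Rpl3 alone and -0.025 ± 0.052 for the sum, with adjusted p of 0.978 and 0.949 in edgeR.

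Rpl30, a large-subunit protein, was at 110, 160, 258, 161 and 238 CPM in KI 1 to KI 5, and at 201, 215, 116, 154 and 108 CPM in Ctrl 1 to Ctrl 5. Gm12191 (chromosome 11, 49678710 to 49679057, minus strand) was at 0.349 CPM in KI 3 and at 0 in KI 5, the libraries with the most Rpl30, and between 65.2 and 115 CPM in the other 8. The second copy, Rpl30-ps1 (chromosome 6, 38376807 to 38377154, plus strand), was at 1.90, 2.47, 2.75, 1.02 and 1.24 CPM in KI 1 to KI 5, and at 0.147, 0.129, 0.420, 0.0284 and 0.260 CPM in Ctrl 1 to Ctrl 5. The groups did not overlap, as in 1.32% of all tested genes, and the log2 fold change was 3.39, with an adjusted p of 0.0183 in edgeR. Of the 35 copies tested this was the 1 that passed, against 0.0806% of all tested genes. It was picked out after its value was seen. Its lowest library held 1.42 estimated counts, and whether its reads came from this locus was not tested. The sum of Rpl30 and all its copies was 223 to 261 CPM in hWDFY3KI/KI libraries and 219.6 to 302 CPM in Ctrl libraries, with an adjusted p of 0.909 in edgeR.

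Rplp0, the base of the stalk that recruits elongation factors, was at 694, 779, 571, 700 and 559 CPM in KI 1 to KI 5, and at 624, 530, 615, 751 and 543 CPM in Ctrl 1 to Ctrl 5. Its copy Gm8730 (chromosome 8, 102864845 to 102865798, minus strand) was at 116 to 126 CPM in KI 3, KI 5, Ctrl 2, Ctrl 3 and Ctrl 5, and below 1 CPM in the other 5 libraries. Gm9625 and Gm14165, further copies of Rplp0, were at 28.4 to 35.4 CPM and 7.61 to 11.7 CPM in the same 5 libraries and below 1 CPM in the other 5. With all copies added the log2 fold change was 0.032 ± 0.065.

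**Figure D2:**
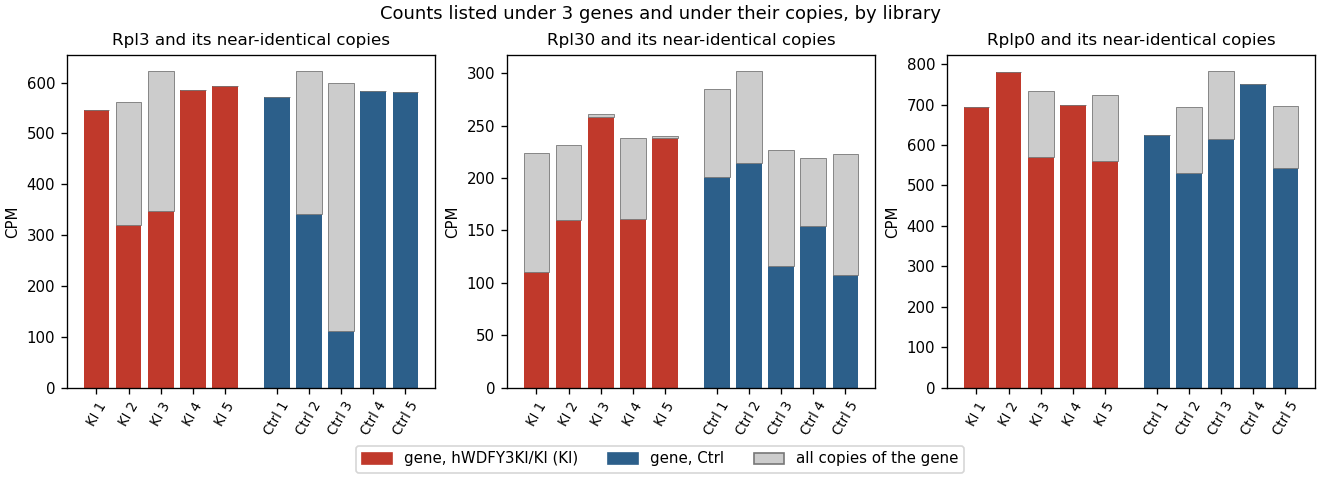
CPM listed under Rpl3, Rpl30 and Rplp0 (coloured) and under all their near-identical copies (grey, stacked), 1 bar per library, hWDFY3KI/KI libraries on the left of each panel and Ctrl libraries on the right. The coloured parts jump between libraries of one group, for Rpl3 from 112 to 584 CPM among Ctrl libraries, while the full bars of Rpl3 stay between 546 and 623 CPM.

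With the counts of all copies added to their genes, 0 of 84 members passed the test in edgeR, where 0.0727% of 12374 genes did, and 0 had an unadjusted p under 0.05, against 6.22% of all tested genes. The median log2 fold change was -0.042, and 68 of 84 values were negative, against 51.7% of all tested genes. The intervals narrowed, so that 83 genes had 2 SE on each side within a 1.5-fold difference. Again 0 had groups that did not overlap, against 1.32% of all tested genes. The median coefficient of variation over the 10 libraries was 8.06% for the genes alone, 6.80% with copies added and 10.4% over all tested genes. The members and copies together took 2.79 to 3.14% of the counts in hWDFY3KI/KI libraries and 2.86 to 3.36% in Ctrl libraries. The ratio of large-subunit to small-subunit counts then lay between 1.53 and 1.54 in hWDFY3KI/KI libraries and between 1.52 and 1.55 in Ctrl libraries.

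The 4 members with an unadjusted p under 0.05 were Rpl28, Rpl36a, Rpl10 and Rpl5, all of the large subunit. Rpl28 was at 128, 137, 137, 132 and 140 CPM in KI 1 to KI 5, and at 135, 158, 174, 154 and 139 CPM in Ctrl 1 to Ctrl 5. Its log2 fold change was -0.17 ± 0.068 (edgeR, adjusted p = 0.744), and -0.12 ± 0.058 with its copies added (adjusted p = 0.797). The hWDFY3KI/KI values were close together and overlapped with the lower 2 of the Ctrl values.

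Rpl10, which lies near the tRNA sites and is added late in subunit maturation, averaged 110 ± 9.07 CPM in hWDFY3KI/KI and 125 ± 13.0 CPM in Ctrl libraries (SD, n = 5 each), with a log2 fold change of -0.19 ± 0.079 (edgeR, adjusted p = 0.768). Its copy Rpl10-ps3 (chromosome 9, 50344201 to 50344968), annotated as protein-coding and identical over 642 coding bases, was at 710 to 815 CPM in hWDFY3KI/KI and 672 to 794 CPM in Ctrl libraries. With copies added the family averaged 882 ± 46.3 CPM in hWDFY3KI/KI and 861 ± 57.3 CPM in Ctrl libraries, and the log2 value turned to 0.035 ± 0.060. Rpl36a, near the exit site of tRNAs, averaged 103 ± 7.19 CPM in hWDFY3KI/KI and 116 ± 11.6 CPM in Ctrl libraries, with a log2 fold change of -0.18 ± 0.074 (edgeR, adjusted p = 0.744), or -0.13 ± 0.084 with copies added. Of these 4 genes Rpl28 and Rpl36a thus kept values below -0.1 in both counts, and Rpl10 did not keep its sign.

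Rpl5 and Rpl11 carry the 5S rRNA into the large subunit and, when free, bind MDM2 and stabilise p53. Rpl5 itself was listed at 29.1, 33.5, 32.5, 30.6 and 30.3 CPM in KI 1 to KI 5, and at 41.0, 44.4, 35.5, 30.3 and 31.6 CPM in Ctrl 1 to Ctrl 5, with a log2 fold change of -0.23 ± 0.099 (edgeR, adjusted p = 0.786). Ctrl 1 and Ctrl 2 stood above all other libraries, and the remaining values overlapped. Its copy Gm15500 (chromosome 7, 114705217 to 114706235, minus strand), identical over 891 coding bases, was at 590 to 671 CPM in hWDFY3KI/KI and 570 to 677 CPM in Ctrl libraries. With copies added the Rpl5 family averaged 654 ± 34.4 CPM in hWDFY3KI/KI and 657 ± 51.8 CPM in Ctrl libraries, and the log2 value was -0.0073 ± 0.063. Rpl11 was at 316 to 381 CPM in hWDFY3KI/KI and 318 to 395 CPM in Ctrl libraries, with a log2 value of -0.046 ± 0.070.

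The stalk of the large subunit, which binds elongation factors and activates their GTPase, is built from Rplp0, Rplp1 and Rplp2. Rplp1 averaged 613 ± 44.3 CPM in hWDFY3KI/KI and 633 ± 63.3 CPM in Ctrl libraries, and Rplp2 averaged 261 ± 11.4 CPM in hWDFY3KI/KI and 252 ± 14.3 CPM in Ctrl libraries. The log2 fold changes were -0.046 ± 0.075 for Rplp1 and 0.050 ± 0.055 for Rplp2, so neither differed from 0 by as much as 2 SE.

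Among 9 proteins listed for the rim of the exit tunnel, where nascent chains meet targeting factors, all log2 values were negative as deposited, and the median was -0.063. Over all tested members 82.1% of values were negative. Rpl39, a short protein inside the tunnel, was at 213, 214, 240, 236 and 210 CPM in KI 1 to KI 5, and at 312, 300.5, 207, 228 and 215 CPM in Ctrl 1 to Ctrl 5. Ctrl 1 and Ctrl 2 were far above the rest, Ctrl 4 and Ctrl 5 lay among the hWDFY3KI/KI libraries, and Ctrl 3 lay just below them. Its log2 fold change was -0.18 ± 0.11 (edgeR, adjusted p = 0.841). The other 8 (Rpl17, Rpl19, Rpl22, Rpl23a, Rpl26, Rpl31, Rpl35 and Rpl38) ran between -0.13 for Rpl22 and -0.019 for Rpl19, each within 2 SE of 0. Rpl35 was at -0.096 as deposited and at -0.036 ± 0.057 with copies added. Rpl38, known in mouse embryos for its part in Hox mRNA translation, averaged 160 ± 8.78 CPM in hWDFY3KI/KI and 167 ± 16.6 CPM in Ctrl libraries. Rpl13a, which in human monocytes can leave the ribosome to silence inflammatory mRNAs, averaged 421 ± 26.3 CPM in hWDFY3KI/KI and 419.6 ± 25.4 CPM in Ctrl libraries, and its log2 value was 0.0039 ± 0.061. Rpl4, among the 5 most abundant members, averaged 722 ± 27.3 CPM in hWDFY3KI/KI and 768 ± 57.9 CPM in Ctrl libraries.

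On the small subunit, Rps2, Rps3 and Rps27a were taken as the group at or near the mRNA entry site. Rps3 averaged 506 ± 28.7 CPM in hWDFY3KI/KI and 526 ± 29.0 CPM in Ctrl libraries, with a log2 value of -0.055 ± 0.058. Rps2 and Rps27a were at -0.021 ± 0.059 and -0.017 ± 0.062. Rps27a is made as a fusion with ubiquitin.

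Rps6, the substrate of the S6 kinases downstream of mTORC1, was at 281, 274, 321, 272 and 289 CPM in KI 1 to KI 5, and at 318, 360, 304, 272 and 285 CPM in Ctrl 1 to Ctrl 5. The groups overlapped, with Ctrl 2 highest, and the log2 value was -0.099 ± 0.077. With copies added Rps6 averaged 497 ± 21.9 CPM in hWDFY3KI/KI and 524 ± 55.3 CPM in Ctrl libraries (SD, n = 5 each), and the log2 value was -0.075 ± 0.071. Rps19, the gene most often mutated in Diamond-Blackfan anaemia in humans, averaged 254 ± 13.0 CPM in hWDFY3KI/KI and 253 ± 17.7 CPM in Ctrl libraries, with a log2 value of 0.0099 ± 0.061. Among 19 members linked to that anaemia, 18 had negative log2 values as deposited, with a median of -0.063. Of all tested members 82.1% were negative, and of all tested genes 51.7%. Rpsa, a small-subunit protein also known as a laminin receptor, averaged 664 ± 29.4 CPM in hWDFY3KI/KI and 667 ± 49.8 CPM in Ctrl libraries. Rps9 had the largest positive value among small-subunit genes, 0.073 ± 0.062, with 582 to 722 CPM in hWDFY3KI/KI and 589 to 640 CPM in Ctrl libraries.

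Rps24 averaged 613 ± 31.8 CPM in hWDFY3KI/KI and 657 ± 109.5 CPM in Ctrl libraries. In Ctrl libraries its values spread widely, with 754 and 795 CPM in Ctrl 1 and Ctrl 2 and 549 to 600 CPM in the other 3. Rpl23 lay between 667 and 743 CPM in hWDFY3KI/KI libraries, against 873 and 869 CPM in Ctrl 1 and Ctrl 2 and 620.1 to 706 CPM in the other 3 Ctrl libraries. Rps19bp1, whose product binds RPS19 and regulates SIRT1, was at 10.2 to 11.7 CPM in hWDFY3KI/KI and 11 to 13.5 CPM in Ctrl libraries, with a log2 value of -0.16 ± 0.082.

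The paralogs were compared with their parent genes through the log2 ratio of both in each library, with exact 2-sided permutation tests over the 252 assignments of libraries to groups, adjusted over 6 pairs. The smallest p this design allows is 0.00794. Rpl22l1, whose product can stand in for Rpl22 and which is known in mouse to be restrained by it, was at 40.7, 35.2, 59.7, 60.3 and 48.6 CPM in KI 1 to KI 5, and at 73.6, 65.7, 45.6, 50.8 and 48.3 CPM in Ctrl 1 to Ctrl 5. The values scattered within both groups. The log2 ratio of Rpl22l1 over Rpl22 was -1.62 ± 0.39 in hWDFY3KI/KI and -1.52 ± 0.13 in Ctrl libraries (SD, n = 5 each), a difference of -0.11 (exact permutation p = 0.587, adjusted p = 0.705).

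Rpl36al over Rpl36a gave the smallest p of the 6 pairs. The log2 ratio was -0.054 ± 0.082 in hWDFY3KI/KI and -0.15 ± 0.073 in Ctrl libraries, a difference of 0.10 (exact permutation p = 0.0714, adjusted p = 0.429). With copies added it was -0.70 ± 0.041 in hWDFY3KI/KI and -0.75 ± 0.048 in Ctrl libraries, a difference of 0.051 (exact permutation p = 0.127, adjusted p = 0.714). Rps4l over Rps4x differed by 0.21 (exact permutation p = 0.444, adjusted p = 0.705), at an Rps4l level of 1.89 to 4.25 CPM in hWDFY3KI/KI and 1.76 to 2.89 CPM in Ctrl libraries. Rps4l has no protein-coding transcript in the annotation used. Rpl7l1 over Rpl7 differed by -0.012 (exact permutation p = 0.849). None of the 6 pairs passed, as deposited or with copies added. For Rps27l over Rps27 and Rps27rt over Rps27 the test cannot decide whether the paralog changed against its parent. Rps27 and Rps27rt have the same coding sequence, so both ratios depend on how counts were divided between them. Adding copies did not join the counts of Rps27rt to Rps27, and both pairs were kept in the adjustment.

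Rps27 has a paralog, Rps27l, which is known as a p53 target, and an intronless copy, Rps27rt, identical to it over 252 coding bases. Rps27 was listed at 8.25 to 11.3 CPM in hWDFY3KI/KI and 5.98 to 12.4 CPM in Ctrl libraries, and Rps27rt at 172 to 204 CPM in hWDFY3KI/KI and 178 to 245 CPM in Ctrl libraries. Most counts of this identical pair were thus listed under the copy, and which of the loci was transcribed cannot be told from them. The pair together averaged 198 ± 12.7 CPM in hWDFY3KI/KI and 212 ± 28.5 CPM in Ctrl libraries (SD, n = 5 each). Rps27l averaged 48.5 ± 1.85 CPM in hWDFY3KI/KI and 52.5 ± 4.67 CPM in Ctrl libraries, with a log2 fold change of -0.11 ± 0.063 (edgeR, adjusted p = 0.818). Rpl3l, the muscle form of Rpl3, reached at most 0.239 CPM in hWDFY3KI/KI and 0.539 CPM in Ctrl libraries, and Rpl39l, known from male germ cells, at most 0.786 CPM in hWDFY3KI/KI and 2.70 CPM in Ctrl libraries. Both were too low for the test.

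**Figure D3:**
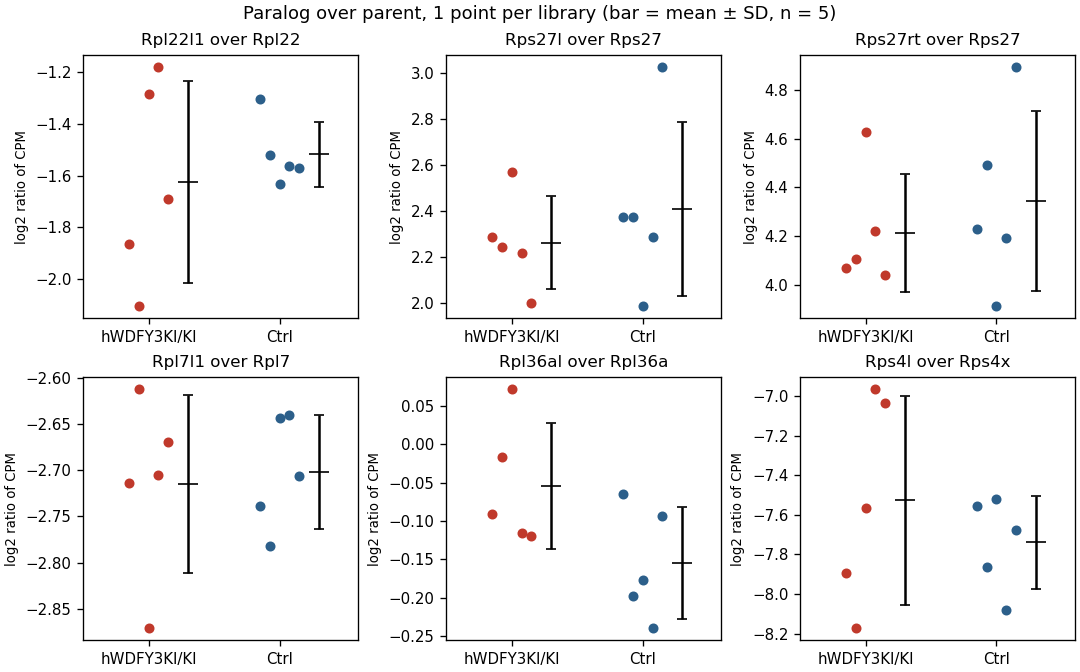
Log2 ratio of paralog to parent CPM for 6 pairs, 1 point per library, hWDFY3KI/KI on the left and Ctrl on the right of each panel, with the mean and SD (n = 5) beside the points. The groups overlap in all 6 panels, and the vertical scales differ between panels.

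Libraries of one genotype differed from each other by more than the genotypes did. With copies added, KI 3 was above the gene's own median in 78 of 84 genes and KI 1 in 3, though both carry the same genotype. Ctrl 2 had the highest value of the 10 libraries for 40 genes and Ctrl 3 for 27, while KI 1 had the lowest value for 35, Ctrl 5 for 16 and Ctrl 1 for 14. The median deviation from a gene's geometric mean, on the log2 scale, was -0.10, -0.022, 0.065, -0.0086 and -0.043 in KI 1 to KI 5, and 0.036, 0.12, 0.026, -0.013 and -0.075 in Ctrl 1 to Ctrl 5. Summed stromal markers were at 345, 332, 345, 653 and 186 CPM in KI 1 to KI 5, and at 820.2, 220.4, 243, 997 and 238 CPM in Ctrl 1 to Ctrl 5. Summed proliferation markers were at 1465, 1522, 1582, 1273 and 1376 CPM in KI 1 to KI 5, and at 1366, 1527, 1370.3, 1258 and 1510.05 CPM in Ctrl 1 to Ctrl 5. Ctrl 2 and KI 3, with the highest median deviations, also had the highest proliferation sums. KI 1 and Ctrl 5, with the lowest median deviations, had more proliferation RNA than the median library as well. The part of these markers in the spread was not tested.

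Within a library the deviation of a ribosomal protein gene went with the GC content of its transcripts in several Ctrl libraries. GC content ranged from 39.8% for Rpl22l1 to 60.8% for Rpl36 over the 84 genes. Spearman's rho between GC content and deviation was 0.099, 0.46, 0.053, 0.14 and 0.19 in KI 1 to KI 5, and -0.62, -0.73, 0.61, 0.52 and 0.020 in Ctrl 1 to Ctrl 5. Pearson's r was between 0.056 and 0.34 in hWDFY3KI/KI libraries, and at -0.63, -0.72, 0.59, 0.21 and 0.052 in Ctrl 1 to Ctrl 5, below rho in Ctrl 4. These values describe 84 genes that share libraries and depth. Over 11353 other genes with at least 1 CPM, rho was -0.12, 0.20, -0.066, 0.011 and 0.037 in KI 1 to KI 5. In Ctrl 1 to Ctrl 5 it was -0.31, -0.30, 0.47, 0.31 and -0.15. The sign was the same as over the members except in KI 1, KI 3 and Ctrl 5.

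In Ctrl 1 the 28 members with the lowest GC content had a median deviation of 0.14 and the 28 with the highest GC content one of -0.083. In Ctrl 3 the order was the opposite, with -0.049 and 0.14. Rpl39, Rpl22l1, Rps24 and Rpl23, picked for their high values in Ctrl 1 and Ctrl 2, had low or middle GC content. Rplp2, at 229.6 CPM in Ctrl 1 against 246 to 265 CPM in the other Ctrl libraries, had a high one. Not every gene went this way: Rpl38, among the 28 with the highest GC content at 55.0%, deviated by 0.19 in Ctrl 1 and 0.14 in Ctrl 2.

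The fitted fold changes also went with GC content. Across the 84 genes with copies added, Spearman's rho between GC content and the log2 fold change was 0.52, against 0.043 over 11410 other genes. The median log2 fold change was -0.071 in the 28 members with the lowest GC content, all of them negative. It was -0.037 in the middle 28, with 23 negative, and -0.019 in the 28 with the highest GC content, with 17 negative. After a trend on GC content was removed from each library in the fit, with copies added, rho was 0.40. The median was then -0.034 over the members and 0.0069 over the other genes, against -0.042 and -0.0038 before removal. Negative values were found in 63 of 84 members and 47.0% of the other genes, against 68 of 84 and 51.4% before removal. As before, 0 members passed the test in edgeR, and Rpl28 had the lowest adjusted p at 0.634.

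**Figure D4:**
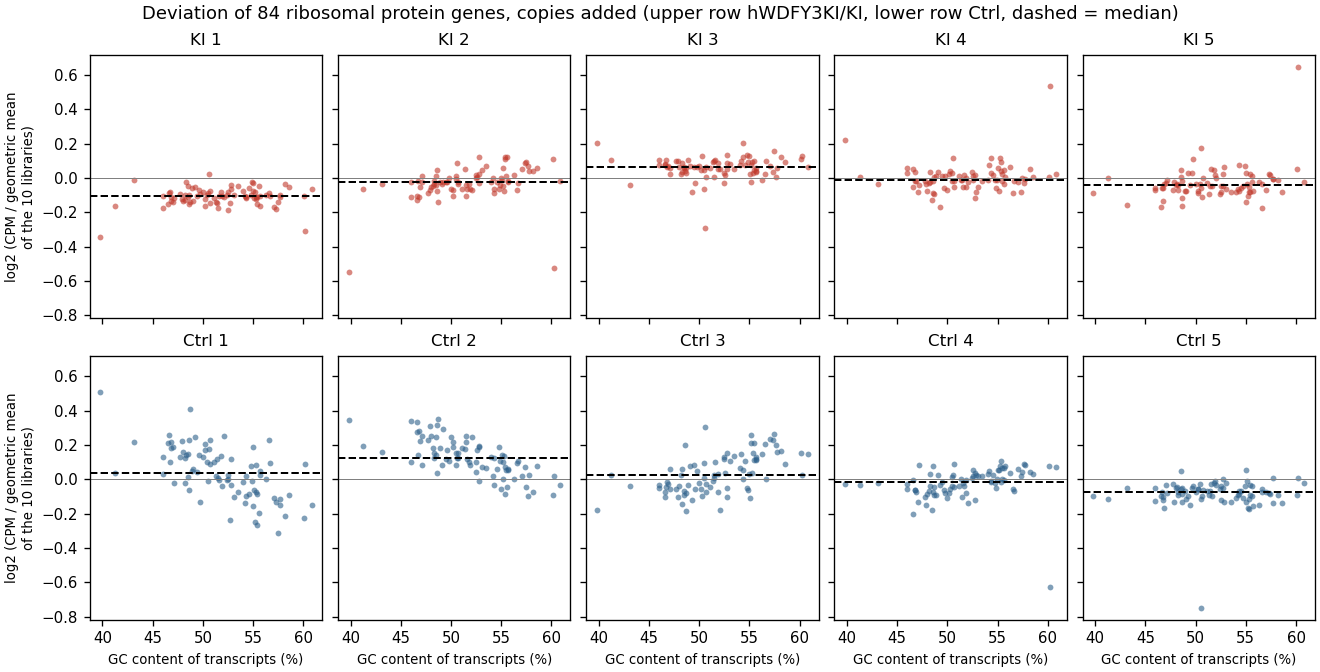
Deviation of each of the 84 ribosomal protein genes, copies added, from its own geometric mean over the 10 libraries (log2) against the GC content of its transcripts in percent, 1 panel per library, hWDFY3KI/KI in the upper row and Ctrl in the lower row, with the median dashed. The cloud tilts down in Ctrl 1 and Ctrl 2 and up in Ctrl 3, and lies as a whole below 0 in KI 1 and Ctrl 5.

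Levels of different genes were compared per kb of the median protein-coding transcript length, since counts grow with length. Over the 77 genes of both subunits the median was 426 CPM per kb in hWDFY3KI/KI and 431 CPM per kb in Ctrl libraries, and the genes ran from 13.4 to 1229 CPM per kb in hWDFY3KI/KI and from 14.5 to 1269 CPM per kb in Ctrl libraries. With copies added the medians were 469 CPM per kb in hWDFY3KI/KI and 485 CPM per kb in Ctrl libraries. The spread over genes shrank as well, with the first and the last quartile at 363 and 580.2 CPM per kb in hWDFY3KI/KI libraries, against 279 and 579 CPM per kb without copies. In Ctrl libraries they were at 380.4 and 604 CPM per kb, against 292 and 576 CPM per kb without copies.

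The low end of the scale was made up largely of genes with abundant copies. Rpl12, which binds beside the stalk base, moved from 13.4 to 345 CPM per kb in hWDFY3KI/KI libraries when its copies were added, Rpl5 from 21.7 to 454 and Rpl10 from 151 to 1219. Rps20 of the small subunit and Rpl22 of the large subunit stayed below 100 CPM per kb, at 70.4 and 72.1 CPM per kb in hWDFY3KI/KI and 72.6 and 78.6 CPM per kb in Ctrl libraries. These values rest on long annotated transcripts. The only coding transcript of Rps20 has 3706 bases and the median for Rpl22 is 2048, against 637 for Rps19. Before division by length and without copies, Rps20 averaged 205 CPM and Rpl22 154 CPM over the 10 libraries. Rps27 was at 26.0 CPM per kb in hWDFY3KI/KI and 25.8 CPM per kb in Ctrl libraries without the counts of Rps27rt, and with them the pair came to 497 CPM per kb of Rps27 in hWDFY3KI/KI and 531 CPM per kb in Ctrl libraries. Rplp1, Rpl10 and Rps24 stood highest, at 1229 ± 88.7, 1219 ± 63.9 and 1168 ± 60.6 CPM per kb in hWDFY3KI/KI and 1269.5 ± 127, 1189.7 ± 79.2 and 1253 ± 209 CPM per kb in Ctrl libraries (SD, n = 5 each), and these neighbours did not differ beyond their spread. The transcript length is that of the annotation, and a gene whose annotated transcripts are longer than those made here appears too low. The median transcript of Rps24 has 525 bases and its longest 1613, and by the longest it was at 380.1 CPM per kb in hWDFY3KI/KI and 408 CPM per kb in Ctrl libraries.

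**Figure D5:**
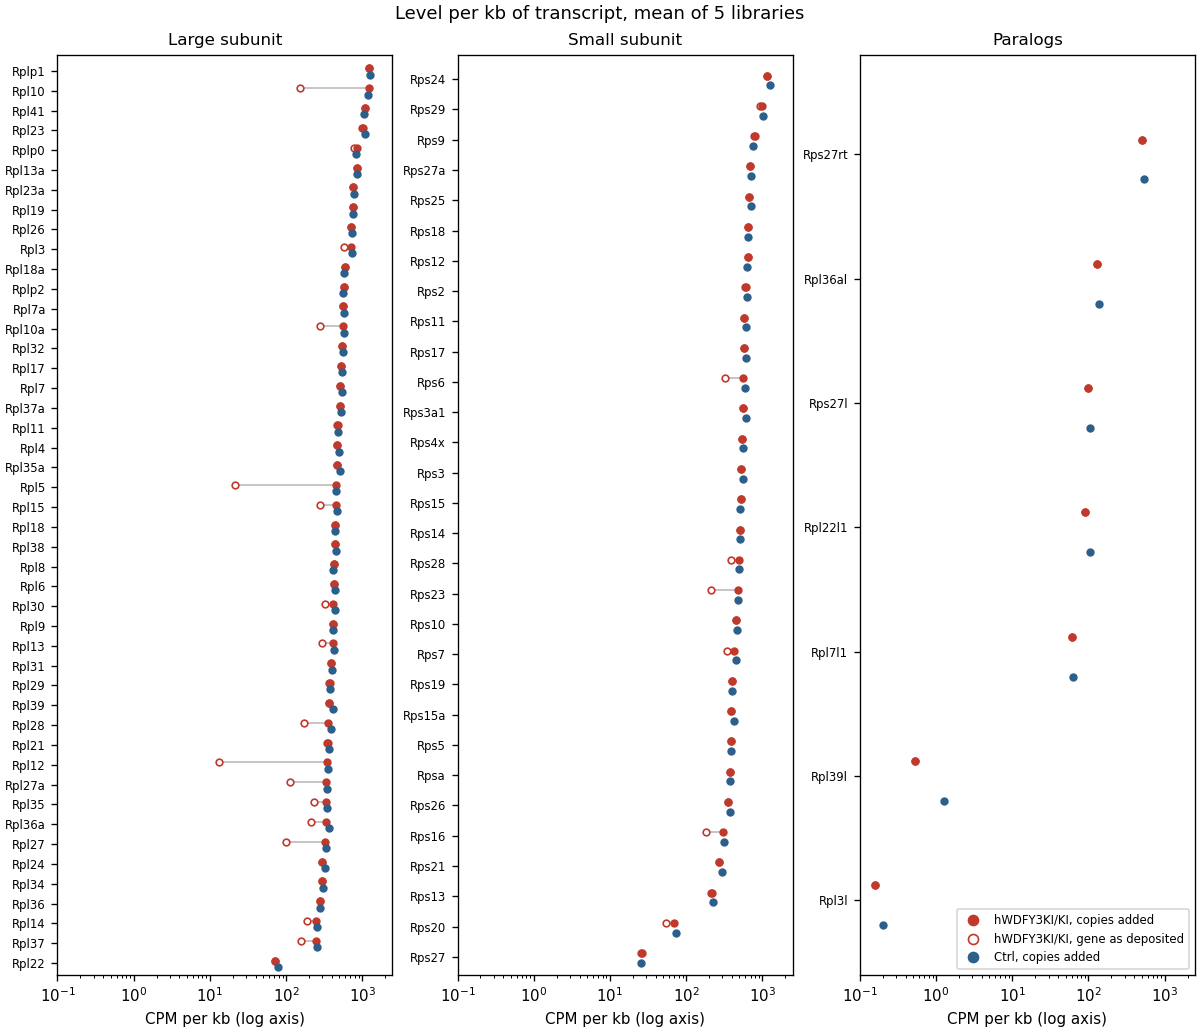
Mean CPM per kb of transcript (log axis, n = 5) for large-subunit genes, small-subunit genes and paralogs, filled for hWDFY3KI/KI and Ctrl with copies added and open for hWDFY3KI/KI as deposited. Long grey lines mark Rpl12, Rpl5 and Rpl10, whose counts lay mostly in copies, and the paralogs Rpl3l and Rpl39l lie at the foot of the scale.

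A pyrimidine run at the transcript start, the sequence of the TOP motif, was looked for at the RefSeq start of each gene (GRCm38.p6), as a C at the start followed by at least 4 bases that are C or T. It was found at the start of 14 of the 65 members with an entry, 21.5%, against 813 of 27025 genes, 3.01%. Allowing the start to shift by 5 bases either way gave 30 members, 46.2%, against 21.2% of all genes. The mitochondrial ribosomal proteins, a separate set of nuclear genes, had 0 of 43 and 0 of 27 such starts for the large and the small subunit, and 13 of 43, 30.2%, and 4 of 27, 14.8%, with the shift allowed. The starts below run from 10 bases before the annotated start to 20 bases from it, 5′ to 3′, with the pyrimidine run in capitals. All were chosen from the starts that have the run: Rps6, Rpl28, members of the stalk and tunnel groups, and Rps27 beside its retrocopy. Rplp0 of the stalk and Rpl19, Rpl22, Rpl26, Rpl31 and Rpl39 of the tunnel group had entries but no such run at the start.
Rps6 (chr4:86857348-86857377, minus strand): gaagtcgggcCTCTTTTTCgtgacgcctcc
Rpl28 (chr7:4792955-4792984, plus strand): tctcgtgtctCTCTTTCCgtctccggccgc
Rpl35 (chr2:39005112-39005141, minus strand): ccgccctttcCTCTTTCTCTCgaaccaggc
Rpl38 (chr11:114668570-114668599, plus strand): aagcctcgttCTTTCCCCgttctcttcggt
Rplp2 (chr7:141447641-141447670, plus strand): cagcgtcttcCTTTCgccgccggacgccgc
Rps27 (chr3:90213629-90213658, minus strand): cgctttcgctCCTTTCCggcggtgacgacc
Rps27rt (chr9:114982720-114982749, minus strand): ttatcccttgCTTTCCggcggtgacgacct
From its start Rps27rt repeats 19 bases of Rps27 that begin 1 base after the start of Rps27, and the bases before the start differ. No match says only that these letters are not at the annotated start.

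Fau and Rack1, outside the symbol rule, had positive values. Fau, a fusion of a ubiquitin-like protein with RPS30, averaged 354 ± 13.5 CPM in hWDFY3KI/KI and 338 ± 34.9 CPM in Ctrl libraries. Rack1, a scaffold on the small subunit, averaged 598 ± 29.6 CPM in hWDFY3KI/KI and 589 ± 44.2 CPM in Ctrl libraries. Their log2 fold changes of 0.068 ± 0.069 and 0.022 ± 0.062 were within 2 SE of 0.

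Other genes of the translation apparatus were described by the same counts. No gene of these lists had an adjusted p under 0.05 in edgeR, and at an unadjusted p under 0.05 the background is again 2.92% lower and 3.29% higher. Negative values made up 51.7% over all tested genes. Among 49 proteins of the large mitochondrial subunit 42 had negative values, with a median of -0.056, and 8 were lower at an unadjusted p under 0.05. Mrpl52 was at 10.6 to 13.8 CPM in hWDFY3KI/KI and 13.6 to 15.5 CPM in Ctrl libraries (log2 -0.28 ± 0.084, edgeR adjusted p = 0.588). Mrpl42, of the same subunit, averaged 38.6 ± 2.32 CPM in hWDFY3KI/KI and 44.7 ± 3.93 CPM in Ctrl libraries (log2 -0.21 ± 0.067, edgeR adjusted p = 0.655). Of 32 proteins of the small mitochondrial subunit 22 were negative, and 2, Mrps12 and Mrps17, were lower at an unadjusted p under 0.05.

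Among 54 ribosome biogenesis factors 43 were negative, with a median of -0.050, and 3 were lower at an unadjusted p under 0.05. Nop10, of the box H/ACA particles that guide rRNA pseudouridylation, averaged 26.8 ± 1.92 CPM in hWDFY3KI/KI and 31.4 ± 3.27 CPM in Ctrl libraries (log2 -0.23 ± 0.077, edgeR adjusted p = 0.700). Wdr43, of the small-subunit processome, was at -0.14 ± 0.056. Of 36 initiation factors 29 were negative, with Eif2b3 and Eif4e at -0.16 ± 0.090 and -0.11 ± 0.062. Of 10 elongation and termination factors 6 were negative, with Gspt1, the release factor eRF3, at -0.14 ± 0.067 and Eef1b2 at -0.076 ± 0.055. Of 18 further genes with known TOP mRNAs 15 were negative, and Nap1l1, a histone chaperone, was at -0.20 ± 0.088 (edgeR adjusted p = 0.786), with Btf3 at -0.12 ± 0.060. RNA polymerase I genes and regulators of ribosome production went the other way in number, with 17 of 27 positive. Tsc1, an inhibitor of mTORC1 signalling, averaged 56.3 ± 3.05 CPM in hWDFY3KI/KI and 51.1 ± 1.99 CPM in Ctrl libraries (log2 0.14 ± 0.052, edgeR adjusted p = 0.706), and its groups did not overlap, as in 0.733% of all tested genes. Eif4ebp2, a translational repressor, was at 0.11 ± 0.054.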

How the data were processed

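Strand-specific libraries of poly(A)+ RNA were read in pairs of 100 bp, per the labels' protocols. Salmon 1.6.0, MultiQC and DESeq2 1.34.0 are named in the submitters' processing notes, and so are the builds GRCm39 and mm10, without their roles. The deposited estimated counts per Ensembl gene are not all whole and were rounded here. No label or header tells how Salmon was run or whether decoys or strand were used. The deposited log2 values are on the regularized-log scale, per the file headers and notes, and served to choose members and as an alternative.

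Genotypes were compared with edgeR 4.0.16 (R 4.3.3; TMM factors, filterByExpr with minimum count 10 and minimum total 15, robust quasi-likelihood F-test) over 12411 genes with Benjamini-Hochberg adjustment and a threshold of 0.05. CPM use TMM-scaled library sizes, shares of counts use raw totals, and SE is the log2 fold change over the square root of F. Copies were found with BLAST 2.17.0 in GENCODE M21 transcripts (plus strand, at least 50% of the copy's own transcript matched). GC content is the median over protein-coding M21 transcripts, or over all transcripts of a gene without a coding one, such as Rps4l. The GC trend per library was a natural spline with 4 degrees of freedom. On simulated counts for the comparison of hWDFY3KI/KI with Ctrl (12411 genes), edgeR recovered 16% of genes changed 1.25-fold, 66% changed 1.5-fold, 86% changed 2-fold and 100% changed 3-fold. With a GC trend simulated and removed, the shares were 22%, 70%, 80% and 94%.

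Named members were those past the threshold or without overlap (none), the 5 largest positive and negative fitted values, the 5 highest and lowest means, untested members, paralogs with their parents, the stalk, 5S, tunnel and mRNA entry lists, and Rps6, Rps19, Rpl13a and Rpsa. Rpl28, the copies and the genes named for GC content were chosen after their values were seen. Of each translation list the 2 genes with the smallest p were named. Members and lists were chosen with earlier results of these data known. Copies added, the GC trend and the fits without the 3 libraries richest in stromal RNA were added after seeing the data. The labels do not say that replicate numbers pair mice, and no block was used. Intervals measure the spread between libraries, which nothing beyond the labels shows to come from separate cultures. RefSeq starts of 65 members were matched by symbol. Some genes that the rules name are not reported here.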

Additional observations from a re-analysis of the deposited data

Results flagged for a closer look

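In 4 of 100 groups of 5 libraries examined, 1 library lay far from the other 4 by Dixon's criterion (a gap over 0.71 of the range), where chance marks about 5%. Rpl35, a protein of the exit tunnel rim, was at 240.6 CPM in KI 3, against 210 to 218 CPM in the other hWDFY3KI/KI libraries. Rps24 was at 668 CPM in KI 3, against 588 to 608 CPM in the others, and KI 3 was also the hWDFY3KI/KI library with the most members above their own median. Rps27l was at 45.3 CPM in KI 5, against 48.9 to 49.9 CPM in the other hWDFY3KI/KI libraries. Rps4l was at 1.76 CPM in Ctrl 4, against 2.73 to 2.89 CPM in the other Ctrl libraries.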

How the results depend on the processing

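Under each of the 24 other settings tried, 0 members passed the test, and the median of the members stayed below 0, between -0.081 without Ctrl 5 and -0.016 with limma-trend on the deposited log2 values. The count over all tested genes moved more, from 10 to 52 with DESeq2, 38 without the 3 libraries richest in stromal RNA, 35 with copies also added, and 6 to 23 when 1 library was left out. With the replicate number as a block, the pairing fit, 12 genes and 0 members were called and the members' median was -0.049. Deviations of same-numbered libraries from their group means correlated at -0.20, 0.027, 0.039, 0.51 and 0.25, so the numbers were not taken as pairs. The fits with all copies added, with GC removed and without the 3 libraries were chosen after seeing the data.

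Signs of single members near 0 were less stable. With all copies added, and then with the GC trend also removed, Rpl3 was at -0.025 and -0.014, Rpl30 at -0.073 and -0.046, and Rpl10 at 0.035 and 0.051. With only copies named as pseudogenes added, Rpl3 was at -0.025 and Rpl10 at 0.035. Rpl5 turned to 0.018 with copies added and GC removed. Rps27 was at 0.0027 with upper-quartile factors, 0.0028 with limma-trend, 0.021 with the block, 0.0080 with copies added, 0.011 with GC removed and 0.023 with both. Limma-trend gave 0.0089 for Rpl7l1, 0.019 for Rps4x, 0.0025 for Rpl31, 0.018 for Rps27a and -0.016 for Rps19, and GC removal gave Rps27a 0.0033, or 0.0050 with copies added. The cause was not tested.

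Leaving out 1 library at a time gave log2 values of -0.12 to 0.25 for Rpl3, -0.14 to 0.074 for Rps27, -0.023 to 0.040 for Rpl13a, -0.041 to 0.0062 for Rpl19, -0.068 to 0.0023 for Rpl31, -0.082 to 0.0090 for Rplp1, -0.022 to 0.033 for Rps19, -0.057 to 0.017 for Rps2, -0.046 to 0.030 for Rps27a, -0.068 to 0.039 for Rps4x and -0.040 to 0.027 for Rpsa. The ratios ran from -0.22 to 0.014 for Rpl22l1 over Rpl22, -0.038 to 0.027 for Rpl7l1 over Rpl7, -0.25 to 0.0083 for Rps27l over Rps27 and -0.24 to 0.0076 for Rps27rt over Rps27. With 5 libraries per group, 66% of simulated 1.5-fold changes were recovered over 12411 genes, so smaller differences were often not detectable among such genes. The members were measured more closely, with a median SE of 0.070, or 0.065 with copies added, against 0.092 over all tested genes. For 81 of the 84 members, or 83 with copies added, 2 SE on each side stayed within a 1.5-fold difference. The share recovered was not computed for the members alone.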
